A study of Mus musculus with 16 samples.

Results

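Corticosteroid signaling genes were examined in the cortex of 7-day-old mouse pups, to ask whether they differed between genotypes and whether the response genes moved together from pup to pup. The 8 genes were taken from the deposited table of 36930 entries by their symbol. They are the receptors Nr3c1 and Nr3c2, the response genes Fkbp5, Sgk1, Tsc22d3 and Zbtb16, the corticotropin releasing hormone receptor Crhr1 and the enzyme gene Hsd11b1. All 8 passed the filter on low values, log2 above -5 in at least 12 of the 16 pups, which left 21183 entries.

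The cortices came from 8 Avil-ChR2 and 8 ChR2-flfl C57BL6 pups, and all 16 had received blue light, 1 h per day, on the days P1 through P5. Avil-ChR2 pups carry a Cre recombinase driven by the promoter of advillin (Avil), a gene of peripheral sensory neurons, which switches on the light-gated channel ChR2 from a floxed allele. ChR2-flfl pups carry the floxed allele without Cre and served as controls, and the light was given together with a Cre-negative mother. No pup without light exposure was among the samples, so that the effect of the chamber itself cannot be told apart from the levels in both groups. Avil amounted to between 37.3 and 46.4 CPM in Avil-ChR2 pups and to between 0.825 and 1.46 CPM in ChR2-flfl pups, so that every pup matched its genotype label. Read totals per pup ranged from 30549126 in ChR2-flfl replicate 3 to 48711134, with the next lowest at 47791532.

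Glucocorticoids such as corticosterone enter the brain from the blood and bind to 2 nuclear receptors. The glucocorticoid receptor, encoded by Nr3c1, is found in most brain cells, whereas the mineralocorticoid receptor, encoded by Nr3c2, binds corticosterone with higher affinity. Upon binding they leave a complex of chaperones, move to the nucleus and act on DNA at hormone response elements, where Fkbp5, Sgk1, Tsc22d3 and Zbtb16 are well-known targets. In newborn rodents the adrenal response to mild stress is blunted, and the levels of these transcripts are widely used as a reading of corticosteroid action in the tissue.

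The element bound by these receptors is a palindrome, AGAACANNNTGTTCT, made of the 6 letters AGAACA and their reverse complement. RefSeq promoter windows on GRCm38.p6, from 250 bases before to 50 bases after an annotated start, were found for 6 of the 8 genes, 13 windows in all, and not for Nr3c1 and Zbtb16. The full palindrome occurred in 3 of all 32851 mouse windows (0.00913%), and 1 of these 3 belongs to Sgk1. The shorter AGAACA, read on both strands and also counted inside the palindrome, occurred in 19.0% of all windows and in 4 of the 13, which are 3 windows of Sgk1 and 1 of Tsc22d3. The 60-base stretches below lie upstream of their start. They are shown because they hold the only full palindrome in the 13 windows of the 6 genes searched and, for contrast, a single element at a similar distance, with the matched letters in capitals.
Sgk1, start at base 21993890, chr10:21993679-21993738, + strand: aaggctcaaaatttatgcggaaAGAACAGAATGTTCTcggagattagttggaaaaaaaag
Sgk1, start at base 21882184, chr10:21881962-21882021, + strand: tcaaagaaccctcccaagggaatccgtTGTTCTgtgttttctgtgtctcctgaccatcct
Tsc22d3, start at base 140600522, chrX:140600675-140600734, - strand: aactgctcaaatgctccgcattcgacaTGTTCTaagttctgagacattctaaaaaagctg
The palindrome of Sgk1 begins 189 bases before its start, and the single elements begin 195 bases (Sgk1) and 185 bases (Tsc22d3) before theirs. Sgk1 has 6 annotated windows and Tsc22d3 has 3, and the deposited values are sums per gene, so that they do not show which start was used. A match of letters is a description of the sequence and no evidence of receptor binding.

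All 8 genes were clearly expressed at P7. Levels between genes were compared as CPM per kb of the longest annotated transcript (GENCODE, GRCm38), over all 16 pups. Crhr1, the G protein-coupled receptor for corticotropin releasing hormone, was highest at 20.3 ± 1.96 CPM per kb (SD, n = 16). Sgk1, the serum and glucocorticoid regulated kinase, followed at 16.9 ± 0.694 CPM per kb, and it was lower than Crhr1 in 16 of 16 pups although their ranges overlapped. Tsc22d3, which encodes the glucocorticoid-induced leucine zipper protein, reached 13.6 ± 0.658 CPM per kb, with a range apart from those of Sgk1 and Nr3c1. The glucocorticoid receptor gene Nr3c1 lay at 9.93 ± 0.717 CPM per kb and Fkbp5, a co-chaperone that lowers the affinity of the receptor for its hormone, at 8.28 ± 0.409 CPM per kb. Their ranges overlapped, with Nr3c1 higher in 15 of 16 pups. A gap separated Fkbp5 from the 3 genes with the lowest levels. Zbtb16, a zinc finger repressor, and the mineralocorticoid receptor gene Nr3c2 had 4.63 ± 0.473 and 4.43 ± 0.441 CPM per kb, and Zbtb16 was the higher of them in 9 of 16 pups only. Hsd11b1, whose enzyme regenerates active corticosterone from its inactive 11-keto form, was lowest at 3.78 ± 0.334 CPM per kb. These levels are averages over all cells of the tissue, so that fewer cells of a type and less RNA per cell cannot be told apart.

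The precision differed between the genes. Hsd11b1 rested on 239 to 412 reads per pup, whereas Nr3c1 rested on 1997 to 3365. Counting error of that size equals 33.6% of the variance of Hsd11b1 between pups of a genotype on the log2 scale, 27.7% for Fkbp5, 22.5% for Sgk1 and 21.4% for Tsc22d3, but between 4.43% and 8.43% for the other 4 genes. The response genes Sgk1, Tsc22d3 and Fkbp5 had the smallest spread over all 16 pups, with coefficients of variation of 4.10%, 4.83% and 4.94%. Zbtb16 (10.2%), Nr3c2 (9.96%) and Crhr1 (9.65%) varied most. On the opposite strand, Nr3c2 overlaps LOC102640923 at a mean of 4.52 CPM and Hsd11b1 overlaps Gm31467 at 2.13 CPM. Whether strand was used in counting is not stated, so reads shared with these neighbors cannot be told apart.

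**Figure D1:**
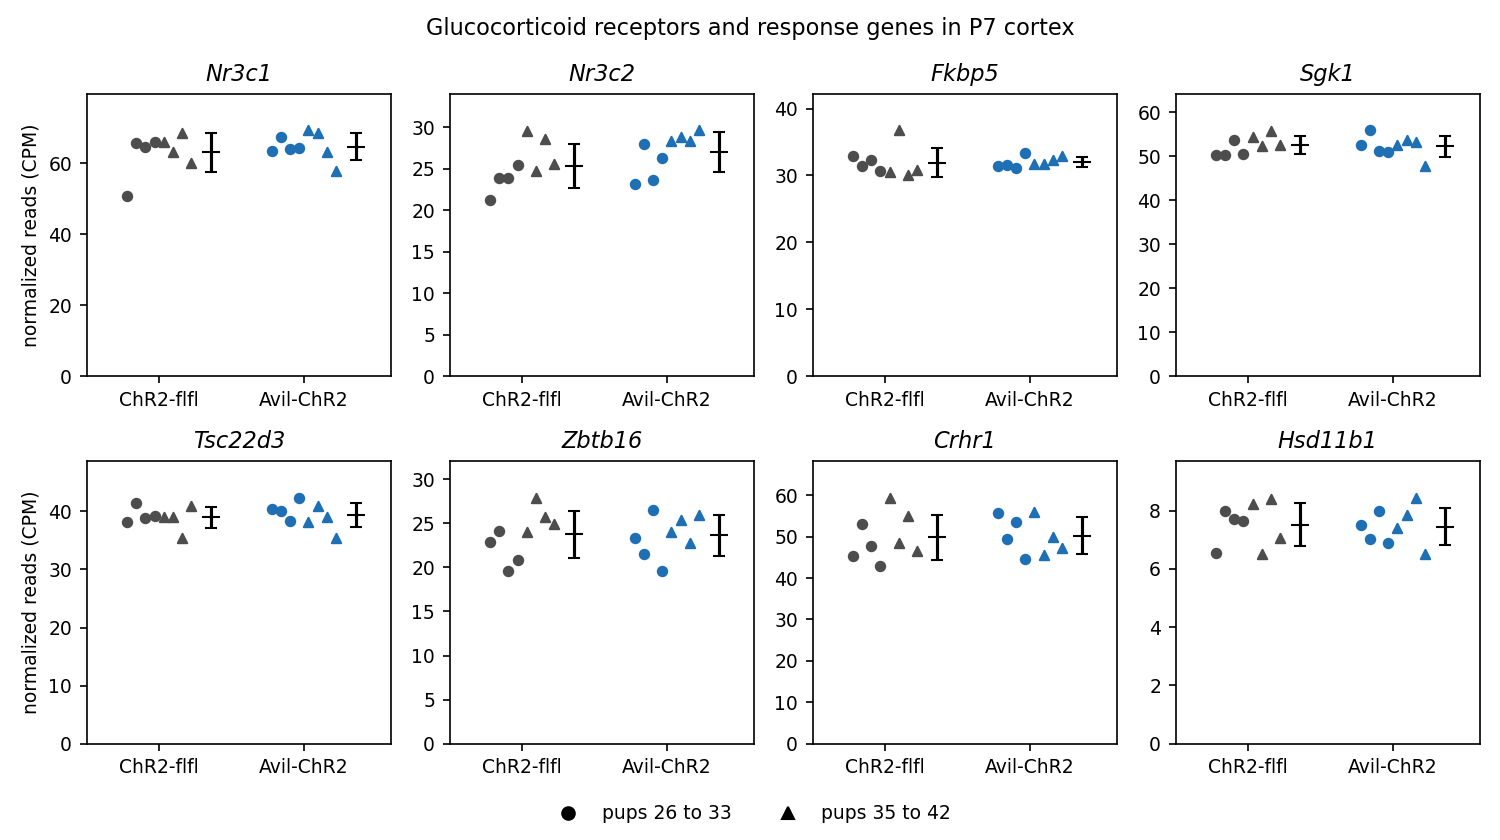
Normalized reads (CPM, linear axis from 0) of the 8 genes in each pup, by genotype, with circles for pups 26 to 33 and triangles for pups 35 to 42, and with mean and SD (n = 8) to the right of each group. The genotypes overlap for every gene, for example Fkbp5 at 31.9 ± 2.17 and 32.0 ± 0.788 CPM.

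None of the 8 genes passed the test for a difference between Avil-ChR2 and ChR2-flfl cortices. Over all 21183 entries the limma comparison of the genotypes called 2 (0.00944%) at an adjusted p under 0.05, of which Avil was the higher, and 1145 (5.41%) at an unadjusted p under 0.05. Among the 8 genes these counts were 0 and 0, with adjusted p from 0.945 to 0.998, and the ranges of the 2 genotypes overlapped for all 8.

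The receptors had the largest differences of the 8, both with a 95% interval that includes 0. Nr3c2 (chr8:76899261-77245232) ranged from 21.3 to 29.6 CPM in ChR2-flfl pups with a median of 25.1, and from 23.2 to 29.6 CPM in Avil-ChR2 pups with a median of 28.2. The log2 difference was 0.09 (SE 0.064, 95% interval -0.04 to 0.23, adjusted p = 0.945 by limma, exact permutation p = 0.207), and 6 of 8 Avil-ChR2 pups lay above the control mean. It was 0.10 in the pups numbered 26 to 33 and 0.09 in those numbered 35 to 42. Nr3c1 on chromosome 18 ranged from 50.9 to 68.6 CPM with a median of 65.1 in ChR2-flfl pups, and from 57.8 to 69.3 CPM with a median of 64.1 in Avil-ChR2 pups. The difference of 0.04 (SE 0.051, 95% interval -0.07 to 0.15) became -0.01 without ChR2-flfl replicate 1, the pup with the lowest value.

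The 4 response genes had log2 differences between -0.01 and 0.01. Fkbp5 (chr17:28398753-28486149) ranged from 30.1 to 36.7 CPM in ChR2-flfl pups with a median of 31.1, and from 31.1 to 33.4 CPM in Avil-ChR2 pups with a median of 31.7. Its difference was 0.01 on the log2 scale (SE 0.037), which as a ratio of Avil-ChR2 to ChR2-flfl has a 95% interval of 0.952 to 1.06. All 8 Avil-ChR2 pups lay within the control range. Sgk1 (chr10:21882184-21999903) ranged from 50.2 to 55.8 CPM in ChR2-flfl pups with a median of 52.5, and from 47.8 to 55.9 CPM in Avil-ChR2 pups with the same rounded median. Its ratio had an interval of 0.950 to 1.04. Tsc22d3 (chrX:140539528-140600522) ranged from 35.5 to 41.5 CPM in ChR2-flfl pups with a median of 39.0, and from 35.4 to 42.3 CPM in Avil-ChR2 pups with a median of 39.6. Its ratio had an interval of 0.955 to 1.06. For these 3 genes the intervals were the narrowest of the 8. Zbtb16 (chr9:48651797-48836381) was measured less tightly. It ranged from 19.6 to 27.9 CPM with a median of 24.1 in ChR2-flfl pups and from 19.6 to 26.5 CPM with a median of 23.7 in Avil-ChR2 pups, and the interval of its ratio was 0.901 to 1.10.

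The receptor of the hypothalamic hormone and the activating enzyme likewise had differences near 0. Crhr1 (chr11:104131998-104175518) ranged from 42.9 to 59.4 CPM with a median of 48.2 in ChR2-flfl pups and from 44.5 to 55.9 CPM with a median of 49.6 in Avil-ChR2 pups. The log2 difference was 0.01 (SE 0.063), and within the series of pup numbers it was 0.10 (26 to 33) and -0.07 (35 to 42). Hsd11b1 (chr1:193221640-193264049) ranged from 6.50 to 8.41 CPM with a median of 7.69 in ChR2-flfl pups and from 6.53 to 8.44 CPM with a median of 7.46 in Avil-ChR2 pups, a log2 difference of -0.01 (SE 0.067).

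**Figure D2:**
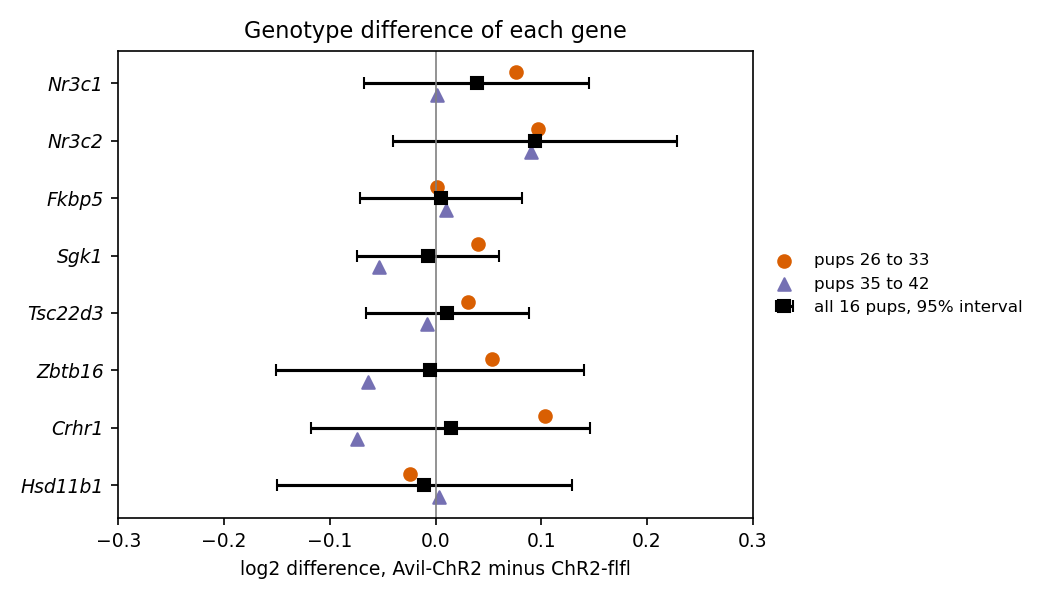
Log2 difference of each gene, Avil-ChR2 minus ChR2-flfl. Squares with bars are the estimates over all 16 pups with 95% intervals, circles and triangles the differences within pups 26 to 33 and pups 35 to 42 (4 per genotype in each). Every interval includes 0, and for 5 genes the differences of the 2 sets of pups lie on opposite sides of 0.

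The genotype difference was also compared between the sexes. The interaction of genotype with the labelled sex was called for 0 of the 8 genes and for 0 of all 21183 (0%), and at an unadjusted p under 0.05 for 0 of the 8 and for 912 of all entries (4.31%) in limma. Avil-ChR2 replicate 4 is female in the labels but had Y-linked transcripts at the level of labelled males, for example 22.5 CPM of Kdm5d, and is male in the supplementary list of the study. With the sexes of that list the interaction was again called for 0 genes, and Tsc22d3 had the lowest unadjusted p of the 8 (0.049, where 6.23% of all entries had an unadjusted p under 0.05, adjusted p = 0.799 by limma), with log2 differences of -0.06 in females and 0.08 in males.

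The pup numbers of the labels form 2 series, 26 to 33 and 35 to 42, each with 4 pups per genotype. The labels do not say what distinguishes them. Between these series 26 entries (0.123%) were called and 2649 (12.5%) had an unadjusted p under 0.05, more than between genotypes. Nr3c2 had the largest difference of the 8 genes. It amounted to 24.5 ± 2.07 CPM in pups 26 to 33 (n = 8), with a range of 21.3 to 28.0, and to 28.0 ± 1.81 CPM in pups 35 to 42 (n = 8), with a range of 24.8 to 29.6. The difference was 0.19 on the log2 scale (SE 0.048, unadjusted p = 0.000643, adjusted p = 0.0977 by limma) and did not pass the threshold over all entries. Zbtb16 amounted to 22.3 ± 2.39 CPM in the earlier and 25.1 ± 1.53 CPM in the later numbers, a difference of 0.18 (SE 0.058, unadjusted p = 0.00705, adjusted p = 0.213 by limma). The other 6 genes had differences between -0.05 and 0.06.

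No pair of the 4 response genes had a correlation past the test among pups. The comparison asks whether pups high in Fkbp5 were also high in Sgk1, Tsc22d3 and Zbtb16. Correlations were therefore computed from log2 values after the mean of each genotype had been subtracted, with permutation of pups within genotypes and adjustment over all 28 pairs of the 8 genes. The 6 pairs of response genes had r between -0.39 (Tsc22d3 and Zbtb16) and 0.12 (Fkbp5 and Zbtb16), with a median of 0.00 (-0.0043), and 0 of 6 had an absolute r of at least 0.5. Over all pairs of the 21183 entries the median r was -0.0019, 5.23% had an r of at least 0.5 and 4.90% an r of at most -0.5. Among the 27 further response genes that passed the filter, 49 of 351 pairs (13.96%) had an r of at least 0.5 and 15 (4.27%) an r of at most -0.5, with a median of 0.08, and these pairs share genes and pups. The values were not centred within the series of pup numbers. From the earlier to the later series 19 of these 27 fell and 8 rose. Between the series 7 had an unadjusted p under 0.05 by limma, where 12.5% of all entries did. The part of this shift in the pair correlations was not tested.

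The 6 pairs differed in sign and in how far single pups set them. Fkbp5 and Sgk1 had r = -0.30 (rho = -0.40, permutation p = 0.264, adjusted p = 0.494), and Fkbp5 and Tsc22d3 had r = 0.06 (rho = -0.04, permutation p = 0.807). The 95% interval of the former pair was -0.70 to 0.25. Sgk1 and Tsc22d3 had r = 0.08 over 16 pups, but -0.40 without Avil-ChR2 replicate 8 and 0.39 without ChR2-flfl replicate 7. Fkbp5 and Zbtb16 likewise changed from 0.12 to -0.49 when ChR2-flfl replicate 6, highest in both genes among the controls, was left out. Sgk1 and Zbtb16 had r = -0.07 (rho = -0.12, permutation p = 0.804), with an interval of -0.56 to 0.46, but -0.40 (permutation p = 0.16) when values were centred within each series of pup numbers, between which Zbtb16 differed. With 16 pups these intervals are wide, so that a moderate positive correlation of single pairs is not shown to be absent. Tsc22d3 and Zbtb16 had r = -0.39 (rho = -0.36, permutation p = 0.147, adjusted p = 0.494). For this pair and for Fkbp5 and Sgk1 the sign was negative in both genotypes, in both series of pup numbers and in both labelled sexes. The size of r varied widely, and some values lay near 0. For Fkbp5 and Sgk1 r ran from -0.87 in labelled males to -0.01 in labelled females. For Tsc22d3 and Zbtb16 it ran from -0.68 in Avil-ChR2 pups to -0.06 in labelled males.

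**Figure D3:**
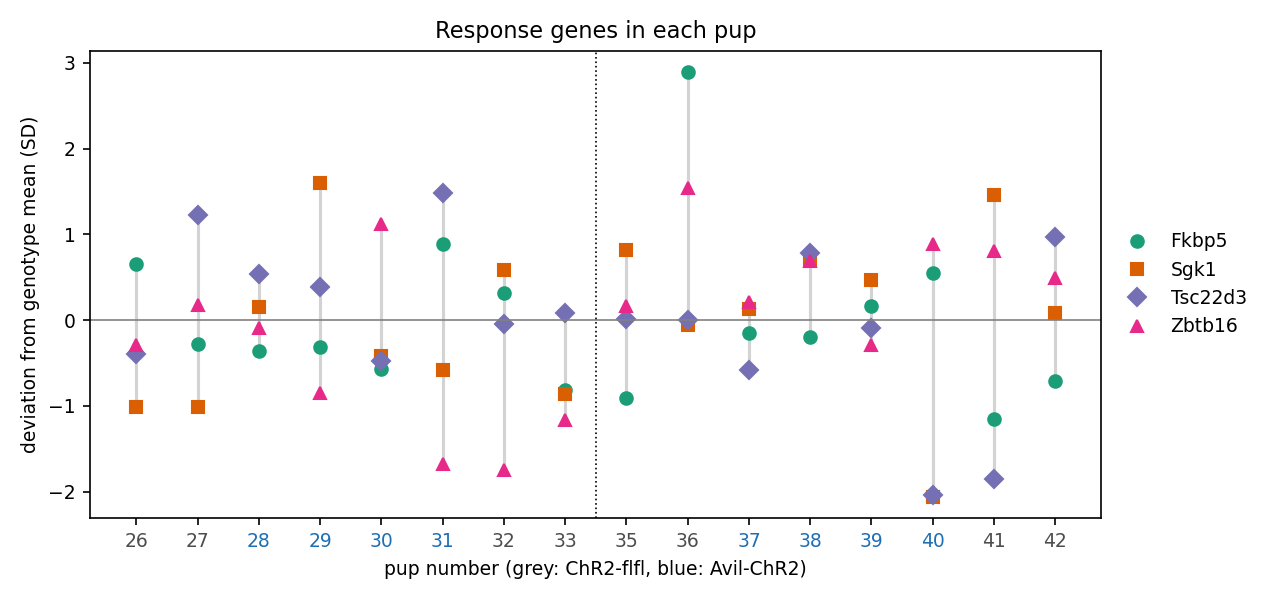
Deviation of the 4 response genes from their genotype mean in each pup, in SD of the gene, ordered by pup number (dotted line between 33 and 35), with a grey line spanning the genes of a pup. Most pups have genes on both sides of 0; pup 36 (ChR2-flfl replicate 6) is high in Fkbp5 and Zbtb16 but not in Sgk1 and Tsc22d3, and pup 40 (Avil-ChR2 replicate 8) is low in Sgk1 and Tsc22d3 only.

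Across all 28 pairs, 0 passed an adjusted p of 0.05 and 3 had an unadjusted permutation p under 0.05. The strongest was an inverse relation of Fkbp5 and Hsd11b1, with r = -0.66 (95% interval -0.88 to -0.22, rho = -0.61, permutation p = 0.0041 for r and 0.0196 for rho, adjusted p = 0.115 and 0.342). ChR2-flfl replicate 6 had the highest Fkbp5 (36.7 CPM) and the lowest Hsd11b1 (6.50 CPM), whereas ChR2-flfl replicate 7 had the lowest Fkbp5 (30.1 CPM) and, among controls, the highest Hsd11b1 (8.41 CPM). The sign was negative in ChR2-flfl (-0.76) and Avil-ChR2 pups (-0.52), in pups 26 to 33 and 35 to 42 (-0.68 in each), and r was -0.55 without the 2 pups farthest from the median of Fkbp5. Omission of single pups gave r between -0.74 and -0.59, and adjusted p was 0.0462 without Avil-ChR2 replicate 7. Centring within each series of pup numbers gave r = -0.67 with an adjusted p of 0.0476, which passes the threshold that the pair misses otherwise. Fkbp5 and Hsd11b1 are the genes with the largest share of counting error in their variance.

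The other pairs with a low unadjusted p both involve the glucocorticoid receptor gene. Nr3c1 and Hsd11b1 had r = 0.61 (rho = 0.46, permutation p = 0.0124, adjusted p = 0.116). Its values were 0.70 and 0.62 in the earlier and later series of pup numbers. Nr3c1 and Sgk1 had r = 0.59 (rho = 0.50, permutation p = 0.0115, adjusted p = 0.116), with 0.33 and 0.85 in the 2 series. Both rest in part on ChR2-flfl replicate 1 and Avil-ChR2 replicate 8, the pups lowest in Nr3c1, since r was 0.32 and 0.35 without them. With Fkbp5 the receptor had r = -0.34, with Tsc22d3 0.16 and with Zbtb16 -0.03, so that 1 of the 4 response genes had an absolute r of at least 0.5 with it, where 14.2% of all entries did. This count turns on single pups: without ChR2-flfl replicate 6 Fkbp5 had r = -0.63 with Nr3c1, and without Avil-ChR2 replicate 8 Sgk1 had 0.48. Centred within each labelled sex, Nr3c1 and Fkbp5 had r = -0.52 (permutation p = 0.0059, adjusted p = 0.0551). The labels place Avil-ChR2 replicate 4 among the females, and the correlation was not recomputed with the sexes of the supplementary list. The 2 receptors had r = 0.49 (rho = 0.49, permutation p = 0.0743, adjusted p = 0.352), which was 0.74 in ChR2-flfl and 0.05 in Avil-ChR2 pups. The difference between these 2 values was not tested. Crhr1 and Hsd11b1 had r = 0.50 (rho = 0.47, permutation p = 0.0647, adjusted p = 0.352).

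**Figure D4:**
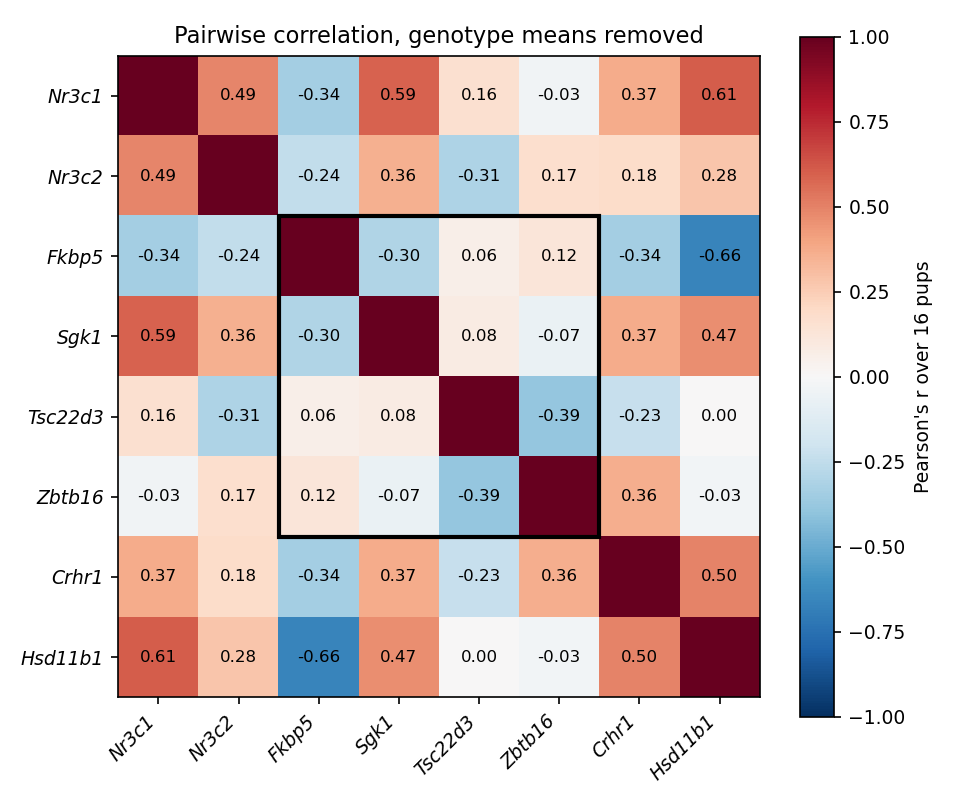
Pearson's r of each pair of the 8 genes over 16 pups, after subtraction of genotype means, with blue for negative and red for positive values and the response genes framed. Within the frame r lies between -0.39 and 0.12, and the largest absolute value of the matrix is -0.66 for Fkbp5 and Hsd11b1.

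The genes also differed in how many other transcripts varied with them. An absolute r of at least 0.5 was found with 15.0% of the other 21182 entries for Nr3c2 and with 14.2% for Nr3c1, but with only 3.96% for Fkbp5, the lowest share of the 8. Sgk1 (8.37%), Tsc22d3 (8.25%), Crhr1 (8.85%), Zbtb16 (6.74%) and Hsd11b1 (5.94%) lay between. The values were not centred within the series of pup numbers, so that the shares include any shift between them, which was largest for Nr3c2. The highest r with Nr3c1 were those of Luzp1 (0.92), Abcd2 (0.89), a peroxisomal fatty acid transporter, and Cdc42se2 (0.89). Nr3c2 was closest to Nhsl1 (0.92), the fibroblast growth factor receptor Fgfr2 (0.92) and Enpp2 (0.91), which encodes the lysophospholipase autotaxin.

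For the response genes the closest transcripts were different in each case. Fkbp5 had its highest r with the decapping enzyme Dcps (0.75), Slc9b2 (0.71) and Egr2 (0.71), a zinc finger immediate-early gene. Sgk1 was closest to the choline transporter Slc44a1 (0.87), the protease inhibitor Reck (0.84) and Dock5 (0.82). For Tsc22d3 these were Tmco1 (0.92), LOC105244710 (0.85) and citrate synthase, Cs (0.83), and for Zbtb16 the adhesion molecule Cadm3 (0.87), Bcat1 (0.83) and Rasgrf2 (0.81). Crhr1 was closest to the plasma membrane calcium pump Atp2b2 (0.86), Fam132a (0.85) and Tiam1 (0.84), and Hsd11b1 to the mitochondrial deacetylase Sirt3 (0.86), Mccc2 (0.81) and Tmem215 (0.80). These are the highest of many values over the same 16 pups and are given without a test.

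Nr3c2 also varied with markers of tissue composition. Marker lists of cell types and neighboring regions and a list of immediate-early genes were averaged per pup and related to each of the 8 genes, 96 relations in all. Of these, 2 passed adjustment, both with Nr3c2. With the 6 striatum markers r was -0.87 (95% interval -0.95 to -0.64, rho = -0.91, permutation p = 4e-05, adjusted p = 0.00384), and the earlier and later pup numbers gave -0.77 and -0.66. All 6 were measured in all pups, summing to 107 to 132 CPM in ChR2-flfl and 97.3 to 144 CPM in Avil-ChR2 pups. Each of the 6 had a negative r with Nr3c2, but the weakest was -0.0079. In 4 of the 6 r was at most -0.5, such as -0.84 for Ppp1r1b and -0.82 for the dopamine receptor Drd1. With the 7 excitatory neuron markers r was -0.84 (rho = -0.89, permutation p = 0.00026, adjusted p = 0.0125), with -0.78 and -0.86 in the 2 series. These markers did not act alike: the transcription factors Bcl11b (-0.85), Tbr1 (-0.80) and Neurod2 (-0.67) were strongly negative, whereas the vesicular transporters Slc17a7 and Slc17a6 had r = 0.10 and 0.52. Without the 2 pups farthest from the median of Nr3c2 the list values were -0.85 and -0.81. The means of the striatum markers were 3.75 ± 0.143 on the log2 scale in pups 26 to 33 and 3.44 ± 0.123 in pups 35 to 42 (SD, n = 8 each), lower in the later series for 6 of 6 markers, where Nr3c2 was higher. The permutations exchanged pups between the 2 series, so that the p-values of all 96 relations include any shift between them. These relations were not tested with values centred within each series. The part of tissue composition or dissection in the Nr3c2 values was not tested.

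The remaining lists gave weaker relations with the 8 genes. Nr3c2 had r = -0.71 with 10 oligodendrocyte lineage markers (rho = -0.79, permutation p = 0.00318, adjusted p = 0.102), but -0.42 and -0.38 within the earlier and later pup numbers, and 9 of these 10 markers were lower in the later series. With 6 markers of meninges and fibroblasts r was 0.68 (rho = 0.54, permutation p = 0.00595, adjusted p = 0.143), with 0.91 and 0.26 within the series and 0.45 without the 2 pups farthest from the median of Nr3c2. Choroid plexus markers summed to between 1.45 and 3.27 CPM only. Of the defining markers, P2ry12 of microglia, Kcnj13 of choroid plexus and Alas2 of red blood cells had no value in any pup. Slc17a7, the vesicular glutamate transporter of cortical excitatory neurons, was read as a check of the labelled tissue. It amounted to 469 ± 42.9 CPM in ChR2-flfl and 507 ± 28.8 CPM in Avil-ChR2 pups (n = 8 each). Its log2 difference was 0.11 (SE 0.049, unadjusted p = 0.0304, adjusted p = 0.884 by limma).

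**Figure D5:**
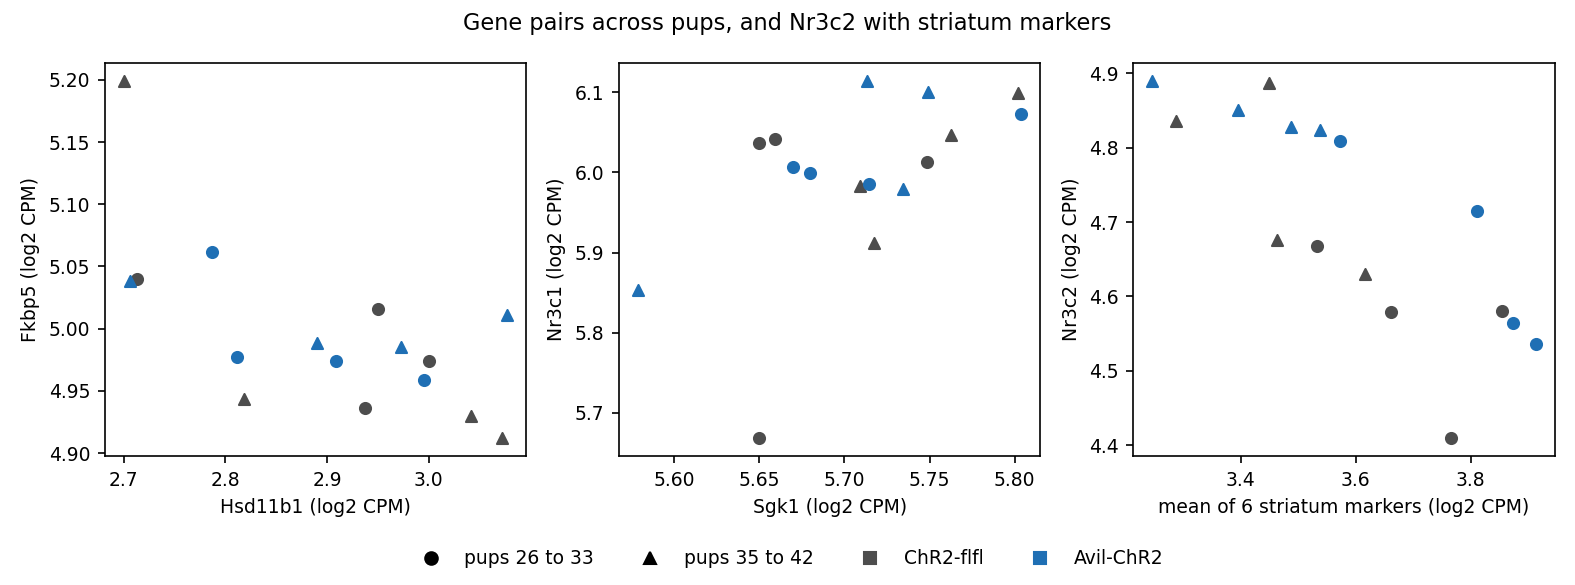
Log2 CPM of Fkbp5 against Hsd11b1, of Nr3c1 against Sgk1, and of Nr3c2 against the mean of 6 striatum markers, with 1 point per pup, grey for ChR2-flfl, blue for Avil-ChR2, circles for pups 26 to 33 and triangles for pups 35 to 42. After subtraction of genotype means r was -0.66, 0.59 and -0.87, and the pup lowest in Nr3c1 is ChR2-flfl replicate 1.

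Other genes of the pathway were compared in the same fit. Of 28 further glucocorticoid response genes 27 passed the filter, 0 were called and 0 had an unadjusted p under 0.05 (5.41% of all entries). Of these 27, 13 were higher and 14 lower in Avil-ChR2 pups, with a median log2 difference of -0.0071 against 0.0020 over all entries. The lowest unadjusted p were those of Rasd1, a small GTPase first found as dexamethasone-induced, at 0.338 ± 0.141 and 0.235 ± 0.117 CPM (adjusted p = 0.911 by limma), and of Hif3a at 9.04 ± 1.06 and 8.26 ± 0.883 CPM (adjusted p = 0.941 by limma) in ChR2-flfl and Avil-ChR2 pups. As with the 4 response genes among the 8, these 27 had no common direction.

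Among the 14 chaperones and co-chaperones of the receptor, which hold it ready to bind hormone, 0 had an unadjusted p under 0.05, and 13 were higher in Avil-ChR2 pups by small amounts, with a median of 0.02. Dnajb1 had 35.1 ± 1.53 and 36.5 ± 1.16 CPM and St13 140 ± 4.76 and 144 ± 5.04 CPM in ChR2-flfl and Avil-ChR2 pups. The 10 coregulators, which link receptors to histone modification, were all lower in Avil-ChR2 pups, 9 of them under quantile normalization, with a median of -0.06. Of these 10, 4 had an unadjusted p under 0.05 (3.46% of all entries in this direction) and 0 were called. The histone acetyltransferase Crebbp had the lowest p, at 67.2 ± 7.49 CPM in ChR2-flfl and 60.4 ± 2.95 CPM in Avil-ChR2 pups (log2 difference -0.15, SE 0.053, adjusted p = 0.825 by limma), followed by Ncoa2 at 125 ± 3.34 and 119 ± 4.69 CPM (-0.07, SE 0.027, adjusted p = 0.849 by limma).

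Of 13 genes of the stress axis, 8 passed the filter, and Ucn2, Ucn3, Avp, Avpr1b and Mc2r did not. Of the 8, 7 were higher and 1 lower in Avil-ChR2 pups, with a median log2 difference of 0.13. Among them 0 were called and 1 had an unadjusted p under 0.05, with the higher level in Avil-ChR2 pups (1.95% of all entries in this direction). This was the CRH binding protein gene Crhbp, with 8.03 ± 0.937 CPM in ChR2-flfl and 9.08 ± 1.06 CPM in Avil-ChR2 pups (log2 difference 0.18, SE 0.079, adjusted p = 0.892 by limma), and the vasopressin receptor Avpr1a 4.63 ± 0.495 and 5.14 ± 0.678 CPM (adjusted p = 0.939 by limma). In corticosteroid metabolism and transport 7 of 10 genes passed the filter. The side chain cleavage enzyme Cyp11a1 had 1.77 ± 0.531 and 2.16 ± 0.306 CPM (0.33, SE 0.156, adjusted p = 0.911 by limma), and H6pd, which supplies the cofactor of the Hsd11b1 enzyme, 10.9 ± 0.979 and 11.4 ± 0.653 CPM (adjusted p = 0.945 by limma). Of 11 immediate-early genes, a reading of recent neuronal activity, 8 were higher and 3 lower in Avil-ChR2 pups, with a median of 0.12. Under quantile normalization 7 were higher. Of the 11, 1 had an unadjusted p under 0.05, Fos at 2.33 ± 0.162 and 2.84 ± 0.503 CPM (0.27, SE 0.102, adjusted p = 0.841 by limma). Arc followed with medians of 4.96 and 5.33 CPM (adjusted p = 0.927 by limma).

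Co-variation with the wider list, again without centring within the series of pup numbers, was uneven as well. Of the 27 further response genes, none had an absolute r of at least 0.5 with Fkbp5 or with Zbtb16, where 3.96% and 6.74% of all entries did, and 3 did with Tsc22d3 (8.25% of all entries) and 6 with Sgk1 (8.37%). For Sgk1, 2 of these 6 were positive and 4 negative, down to -0.66 for Arrdc2. Nr3c2 had 8 (15.0% of all entries), from -0.66 for Ddit4 to 0.81 for glutamine synthetase, Glul. Nr3c1 had 3 of 27 (14.2% of all entries), from -0.66 for Arrdc2 to 0.88 for Klf9. Among the 14 chaperones, 4 had an absolute r of at least 0.5 with Nr3c1 (14.2% of all entries), all positive, with the highest value for the HSP90 gene Hsp90aa1 (0.64). Arrdc2, Ddit4, Glul, Klf9 and Hsp90aa1 were named after their values were seen, as were the markers of excitatory neurons and striatum whose r with Nr3c2 is given, other than Drd1, Neurod2 and Slc17a7.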

How the data were processed

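Cortical RNA of 16 pups (8 per genotype) was sequenced from poly(A) libraries. SeqMan NGen 17 was used by the authors for alignment of reads from 50 bp upwards to GRCm38 (mm10), and ArrayStar 17 for counts per gene, with TMM scaling by edgeR. The deposited values are TMM-normalized CPM on a linear scale with decimal commas. Some are empty, and whether an empty value means that no read was counted was not tested. Xist, for example, had a value in 1 of 9 pups labelled female. In each pup the values present were whole multiples of 1 read, to within 0.05 for 100% of values up to 20000 reads, which gave the read totals. Depth sets counting error only, since the reads carry no molecular identifiers.

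Values were log2 transformed, and missing values or values below -5 were set to -5. The genotype comparison used limma 3.58.1 (R 4.3.3) with intensity trend, without covariates and with Benjamini-Hochberg adjustment over 21183 entries. Exact two-sided permutation tests for single genes used all 12870 splits. Correlations used two-sided permutation tests with 100000 permutations within genotypes (NumPy 2.4.6, Python 3.11.15). P-values over pups measure the spread between animals, and the labels do not give litters. Scripts were tested on simulated data. Same-numbered pups of both genotypes did not deviate together (correlations -0.34 to 0.39), so that no pairing was used.

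The 8 genes and all lists were chosen with earlier results of these data known. Named genes are the 8, from each list the 2 with the lowest unadjusted p, for each of the 8 the 3 entries with the highest r among those averaging 0 or more on the log2 scale, Avil as a check of genotype and Y-linked genes as a check of sex. Alternatives were other scalings, filters, covariates and left-out pups.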

Additional observations from a re-analysis of the deposited data

Results flagged for a closer look

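Among the 16 groups formed by 8 genes and 2 genotypes, 2 held a pup whose distance to the next one exceeded Dixon's 95% critical value, which chance gives in about 1 of 20 groups. For Nr3c1, ChR2-flfl replicate 1 was lowest with 50.9 CPM, and the next pup had 60.2 CPM. The same pup had the lowest Nr3c2 of all, 21.3 CPM. Without it the log2 difference of Nr3c1 between genotypes was -0.01 (SE 0.037) in place of 0.04 (SE 0.051), and the correlation of Nr3c1 and Nr3c2 was 0.19 in place of 0.49. For Fkbp5, ChR2-flfl replicate 6 was highest with 36.7 CPM, and the next pup had 32.9 CPM. That pup was also highest in Zbtb16 (27.9 CPM) and lowest in Hsd11b1 (6.50 CPM). Without it the log2 difference of Fkbp5 was 0.03 (SE 0.029) in place of 0.01 (SE 0.037).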

How the results depend on the processing

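The count of the 8 genes called between genotypes was 0 under all 29 alternatives, with a lowest adjusted p of 0.705. All 232 recomputed differences moved by less than 1 SD of the gene between pups. Omission of 1 pup or a covariate balanced over the genotypes can hardly move a difference that far. The 232 are therefore no measure of robustness. After omission of single pups only Nr3c2 kept its sign, with log2 differences from 0.06 to 0.13, and every other gene had values on both sides of 0. The count of all entries called, 2 in the comparison as reported, was 3 with the series of pup numbers as a covariate, 1 with the replicate number as a block, 1 in pups 26 to 33 only, 1 in pups 35 to 42 only, and 1 to 2 after omission of single pups. With the replicate block, 1 of the 8 genes, Nr3c2, had an unadjusted p of 0.0438 (adjusted p = 0.944 by limma), although the numbers did not pair the pups. The replicate block also separates the 2 series of pup numbers. With the series alone as a covariate Nr3c2 had an unadjusted p of 0.0646 (adjusted p = 0.868 by limma). The count of the 28 pairs past an adjusted p of 0.05, 0 as reported, was 1 when values were centred by genotype within each series of pup numbers (Fkbp5 and Hsd11b1, adjusted p = 0.0476), and 0 to 1 after omission of single pups, with the same pair called without Avil-ChR2 replicate 7. Of 924 recomputed correlations 835 moved by less than 1 standard error. Many of these alternatives omit 1 pup or only rescale the values, so that the 835 are no measure of robustness either. The median r of the 6 pairs of response genes lay between -0.40, in Avil-ChR2 pups only, and 0.04. The interaction with sex was called for 0 of the 8 genes with both sources of sex. Tests with edgeR and DESeq2 on reads worked out from the CPM had been planned and were not run. With 16 pups, correlations have intervals of about the width given beside them, and for Hsd11b1 the read number limits the precision.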

Other observations

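Klf9, a Krüppel-like transcription factor that responds to glucocorticoids and thyroid hormone, was the response gene most closely related to the receptor and was chosen after its values were seen. It ranged from 75.1 to 98.7 CPM in ChR2-flfl pups with a median of 92.0, and from 83.8 to 101 CPM in Avil-ChR2 pups with a median of 95.3. Its r with Nr3c1 was 0.88 over 16 pups, 0.94 in ChR2-flfl and 0.75 in Avil-ChR2 pups, and 0.70 without the 2 pups farthest from the median of Klf9. With Hsd11b1 r was 0.68, with Crhr1 0.66 and with Sgk1 0.51, whereas it was 0.07 with Tsc22d3, 0.10 with Zbtb16 and -0.26 with Fkbp5. These values share the same 16 pups and are given without a test.

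Txnip, a thioredoxin-binding protein gene on the list of further response genes, did not pass the filter. It had values from 13.6 to 19.2 CPM in 4 ChR2-flfl pups and no value in the other 4 or in any Avil-ChR2 pup. Of 12096 entries with a median of at least 5 CPM in the pups that have a value, 20 (0.165%) were empty in 1 to 15 pups, among them Txnip and Xist but none of the 8 genes. The cause of the empty values was not tested, and no difference between genotypes is read from them.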
